A study of Mus musculus with 2 samples.

Results

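The genes described here are 10 members of the epidermal growth factor (EGF) signalling family in cultured mouse dorsal root ganglion (DRG) cells, namely the ligands Btc, Hbegf, Nrg1, Areg, Ereg and Tgfa and the ErbB receptors Egfr, Erbb2, Erbb3 and Erbb4. They were chosen by symbol among the 31053 genes of both libraries, with earlier results of these data known, and each symbol matched 1 gene. Their counts were read in 10730 of 10948 cells, after removal of those under 200 genes or above 10% mitochondrial UMIs (unique molecular identifiers, each of which tags 1 captured RNA molecule). The single condition, Cell_culture, comprised DRG cells of male and female 2-week-old SWISS mice, dissociated and kept in culture for 3 days before they were lifted with trypsin. They were sequenced as 2 droplet libraries, A and B, loaded on the same chip. The labels do not tell whether A and B stem from different mice or dishes, so the spread between them may be technical. Each p-value below sets a group difference against the scatter left once the general difference between A and B is removed. That scatter is estimated with help from all genes tested. A small p-value therefore measures neither the spread between mice nor that of 1 gene between 2 libraries alone. There was no uncultured or treated group, so every comparison is between cell classes within the culture.

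EGF family ligands are made as membrane-anchored precursors that proteases of the ADAM and BACE families cut to release or activate them. Areg and Tgfa bind Egfr, Btc, Hbegf and Ereg bind Egfr and Erbb4, and Nrg1 binds Erbb3 and Erbb4. Erbb2 has no known ligand and serves as the preferred partner of the other receptors, among them Erbb3, whose own kinase is weak, and the resulting dimers signal through Ras, ERK and PI3 kinase. In peripheral nerves Nrg1 carried by axons is known to act on Erbb2 and Erbb3 of Schwann cells, where it controls their survival, growth and myelination.

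Promoter sequences are shown for 4 members, because Areg and Egfr were highest in fibroblasts whereas Btc and Erbb2 were highest in glia. The RefSeq promoter table (build GRCm38.p6) matched 6 of the 10 members, Btc, Areg, Tgfa, Egfr, Erbb2 and Erbb4, and did not list Hbegf, Nrg1, Ereg or Erbb3. Each sequence is the 250 bases before the annotated start, 5′ to 3′ on the strand of the gene, and capitals mark motif matches on either strand.
Areg: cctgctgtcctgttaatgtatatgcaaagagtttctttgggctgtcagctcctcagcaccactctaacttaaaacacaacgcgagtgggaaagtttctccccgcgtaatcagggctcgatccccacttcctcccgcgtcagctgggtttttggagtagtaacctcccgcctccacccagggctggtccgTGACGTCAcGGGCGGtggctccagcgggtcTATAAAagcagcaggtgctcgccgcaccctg
Egfr: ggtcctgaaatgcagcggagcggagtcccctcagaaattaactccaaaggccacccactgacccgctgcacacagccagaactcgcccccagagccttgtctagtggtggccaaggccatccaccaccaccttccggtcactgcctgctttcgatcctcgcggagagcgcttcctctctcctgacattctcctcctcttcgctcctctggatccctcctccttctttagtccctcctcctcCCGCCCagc
Btc: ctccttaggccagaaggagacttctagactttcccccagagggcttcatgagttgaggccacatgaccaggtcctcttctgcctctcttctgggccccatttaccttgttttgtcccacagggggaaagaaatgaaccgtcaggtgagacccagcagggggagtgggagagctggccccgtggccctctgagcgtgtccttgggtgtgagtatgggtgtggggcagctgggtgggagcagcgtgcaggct
Erbb2: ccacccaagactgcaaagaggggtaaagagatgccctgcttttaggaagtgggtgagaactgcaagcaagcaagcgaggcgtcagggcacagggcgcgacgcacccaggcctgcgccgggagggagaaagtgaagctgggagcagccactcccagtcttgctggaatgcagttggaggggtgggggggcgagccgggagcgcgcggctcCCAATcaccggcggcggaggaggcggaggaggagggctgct
The windows lie at chr5:91139349-91139598 on the plus strand for Areg, chr11:16751953-16752202 on the plus strand for Egfr, chr5:91402995-91403244 on the minus strand for Btc, and chr11:98412234-98412483 on the plus strand for Erbb2. The motifs searched, with the share of all 32851 promoters of this length that held them, were the AP-1 site TGANTCA (6.75%), the cyclic AMP response element TGACGTCA (1.55%), the GC box GGGCGG (32.7%), CCAAT (33.8%) and TATAAA (12.4%), and no matches overlapped. The Areg window held a cyclic AMP response element 61 bases, a GC box 52 bases and a TATA box 31 bases before the start. The Egfr window held a GC box 9 bases before the start, the Erbb2 window held CCAAT 41 bases before it, and none of the motifs lay in the Btc window. GC content was 57.2% for Areg, 60.8% for Egfr, 59.6% for Btc and 66.0% for Erbb2, against a median of 52.4% over all promoters. A match describes these letters and is no evidence of a bound factor.

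The libraries held 40355401 UMIs in 5175 cells (A) and 38945848 UMIs in 5773 cells (B), and 8 barcodes occurred in both. The kept cells were clustered with the members and their pathway genes held out of the gene set, and were placed in 4 classes by marker lists: 9447 glia (88.0%), 812 neurons (7.62%), 389 fibroblasts (3.61%) and 82 macrophages (0.762%), the percentages being means over libraries. Clusters and tests still rest on the same cells. Scaled to the class total, glial markers such as Sox10 summed to 5549 and 5460 CPM in glia (A and B), neuronal markers such as Tubb3 to 13908 and 13924 CPM in neurons, fibroblast markers such as Dcn to 25440 and 22783 CPM in fibroblasts, and macrophage markers such as C1qa to 24939 and 27787 CPM in macrophages. Markers of other classes were present in each class: the glial list summed to 647 and 670 CPM in neurons, 353 and 431 CPM in fibroblasts and 1498 and 829 CPM in macrophages, with each of its 8 genes detected. The fibroblast list summed to 2061 and 2078 CPM in glia and 1906 and 526 CPM in macrophages. In glia the neuronal list summed to 316 and 260 CPM. The libraries are droplet-made and no doublet caller was run, so free RNA and doublets can carry UMIs between classes. Their part in the results below was not tested. Levels per UMI of the other class's markers are given beside some of the results they touch, though not for Egfr or Ereg.

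Levels (CPM) are the summed UMIs of a gene in a class, scaled to the total of that class in the library as counts per 1e6 UMIs, and they compare a gene between classes rather than one gene with another. Each class was tested against the equal-weight mean, on the log2 scale, of the other 3 with the quasi-likelihood test of edgeR (Benjamini-Hochberg adjustment over all 13784 genes tested, library as a block, call at 0.05). Of the 10 members, 9 had enough counts to be tested, and Erbb4 did not. Glia had 5 members called higher, where 27.5% of all genes tested were, and 1 lower, where 26.4% were. Neurons had 2 higher (43.0% of all genes) and 4 lower (27.0% of all genes). Fibroblasts had 3 higher (23.4% of all genes) and 4 lower (18.6% of all genes). In macrophages edgeR called no member, where it called 12.1% of all genes higher and 11.1% lower; DESeq2 also called 0, and at an unadjusted p under 0.05 edgeR had 3, Erbb3, Nrg1 and Btc. With a background this high, the counts themselves say little about the family, and the levels below carry the description.

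**Figure D1:**
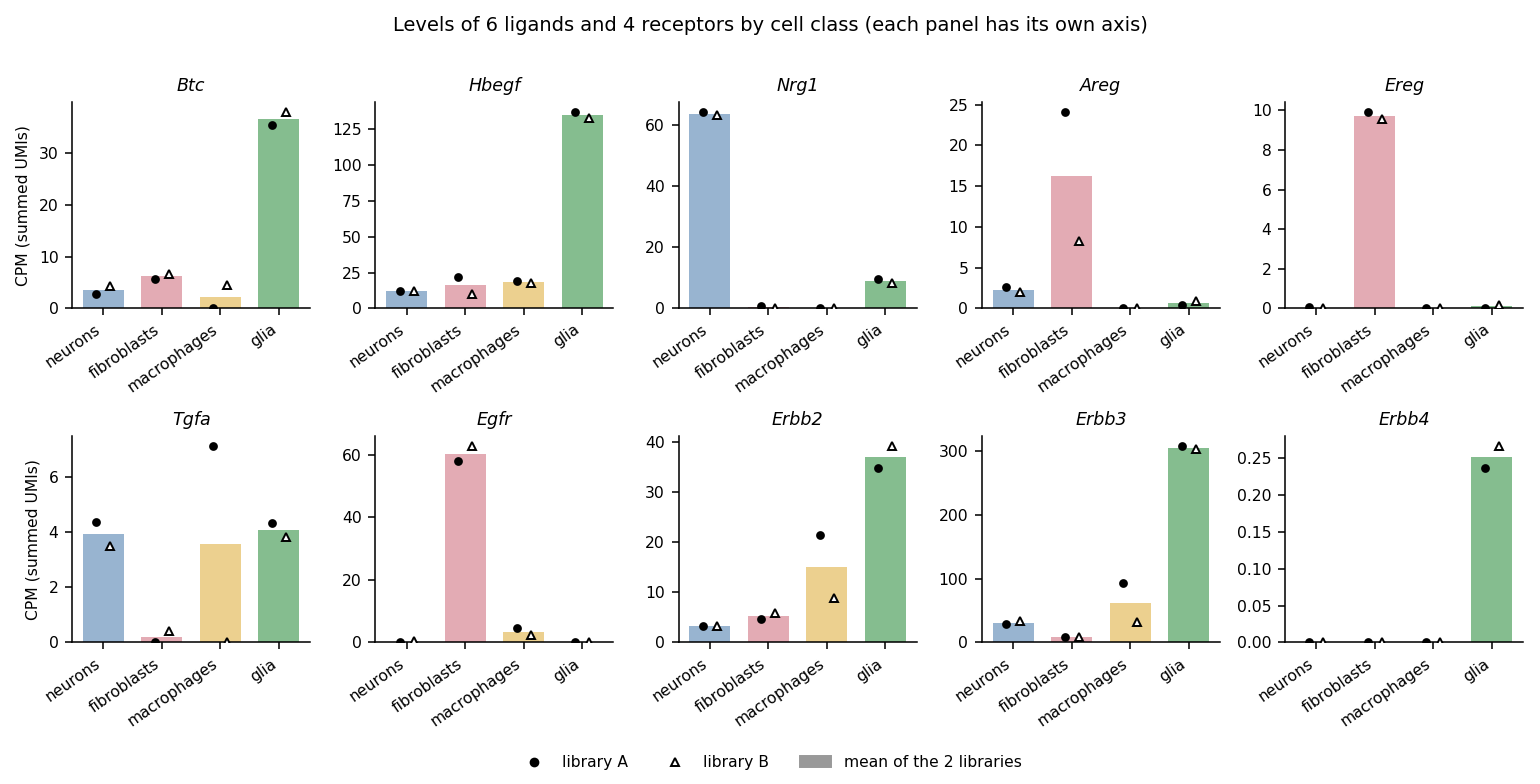
Levels of the 10 members (CPM on linear axes, 1 panel a gene with its own axis) in neurons, fibroblasts, macrophages and glia; points are libraries A and B and bars their mean. Btc, Hbegf, Erbb2 and Erbb3 are highest in glia, Nrg1 in neurons, and Egfr, Areg and Ereg in fibroblasts.

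Btc, Hbegf, Erbb2 and Erbb3 formed the glial set. Btc encodes betacellulin, and it reached 35.3 and 37.8 CPM in glia, against 2.84 and 4.38 CPM in neurons, 5.66 and 6.65 CPM in fibroblasts, and 0 and 4.48 CPM in macrophages. Of its 1995 UMIs in the culture, 94.84% came from glia, which supplied 66.43% of all UMIs. The glial level was 10.1 times that of neurons and 5.94 times that of fibroblasts, with a log2 fold change against the other classes of 2.94 (SE 0.19, edgeR adjusted p = 1.9e-13). No glial library overlapped a library of another class. Thinned to 2000 UMIs a cell, 6.02% and 6.51% of glia had a Btc UMI, against 0.585% and 0.943% of fibroblasts.

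Hbegf, which encodes the heparin-binding ligand of the family, reached 136.8 and 132.6 CPM in glia, against 12.4 and 11.9 CPM in neurons, 22.2 and 10.0 CPM in fibroblasts, and 19.0 and 17.9 CPM in macrophages. Glia were 11.1-fold above neurons, 8.38-fold above fibroblasts (6.17 in A and 13.3 in B) and 7.29-fold above macrophages, and 95.35% of the 7305 Hbegf UMIs were glial. Against the other classes the log2 fold change of glia was 2.78 (SE 0.11, edgeR adjusted p = 2.6e-18), and again the glial libraries overlapped with no other class. In cells thinned to 2000 UMIs, 22.6% and 21.8% of glia had a Hbegf UMI, against 4.10% and 2.54% of neurons. Without thinning the shares were 44.8% and 40.9% of glia, against 25% and 22.6% of neurons, whose median depth of 28331.5 UMIs stood against 4723 in glia.

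Erbb3 binds neuregulins, and it was at 307 and 302.5 CPM in glia, against 28.9 and 32.9 CPM in neurons, 8.96 and 7.89 CPM in fibroblasts, and 92.7 and 31.4 CPM in macrophages. Its log2 fold change in glia was 3.24 (SE 0.09, edgeR adjusted p = 3.4e-21), and glia held 95.59% of its 16490 UMIs. Glial levels were 9.87-fold above neurons, 36.2-fold above fibroblasts and 4.91-fold above macrophages, the last ratio being 3.31 in A and 9.65 in B. Thinned, 46.9% and 46.0% of glia had an Erbb3 UMI, against 6.27% and 7.61% of neurons, 10.8% and 11.1% of macrophages and 2.34% and 1.89% of fibroblasts.

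Outside glia, Erbb3 is set beside the glial markers. Per 1000 UMIs of the 8 glial markers there were 55.3 and 55.4 Erbb3 UMIs in glia, 44.7 and 49.1 in neurons, 61.9 and 37.8 in macrophages and 25.4 and 18.3 in fibroblasts. The macrophage value rested on 39 UMIs in 15 cells of library A, 11 of them in 1 cell, and on 14 UMIs in 10 cells of library B. In the lower-ranked cells of each class by share of glial marker UMIs, those below or at the middle, Erbb3 was at 7.58 and 12 CPM in neurons, 7.0 and 0 CPM in macrophages and 1.04 and 1.75 CPM in fibroblasts. None of these came near the glial level, and neither did any of these classes taken whole. The macrophage values of this choice came from 42 cells and very few UMIs. The neuronal levels of Btc, Hbegf and Erbb2 stood in a like ratio to the glial markers: per 1000 of their UMIs there were 4.39 and 6.55 Btc UMIs in neurons, against 6.37 and 6.92 in glia, 19.2 and 17.8 Hbegf UMIs in neurons, against 24.7 and 24.3 in glia, and 5.19 and 5.07 Erbb2 UMIs in neurons, against 6.29 and 7.18 in glia. In fibroblasts the ratio was higher than in glia for Btc (16.0 and 15.4, on 28 UMIs) and Erbb2 (13.4 and 13.5, on 24 UMIs), and for Hbegf it was 62.8 in A and 23.1 in B.

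**Figure D2:**
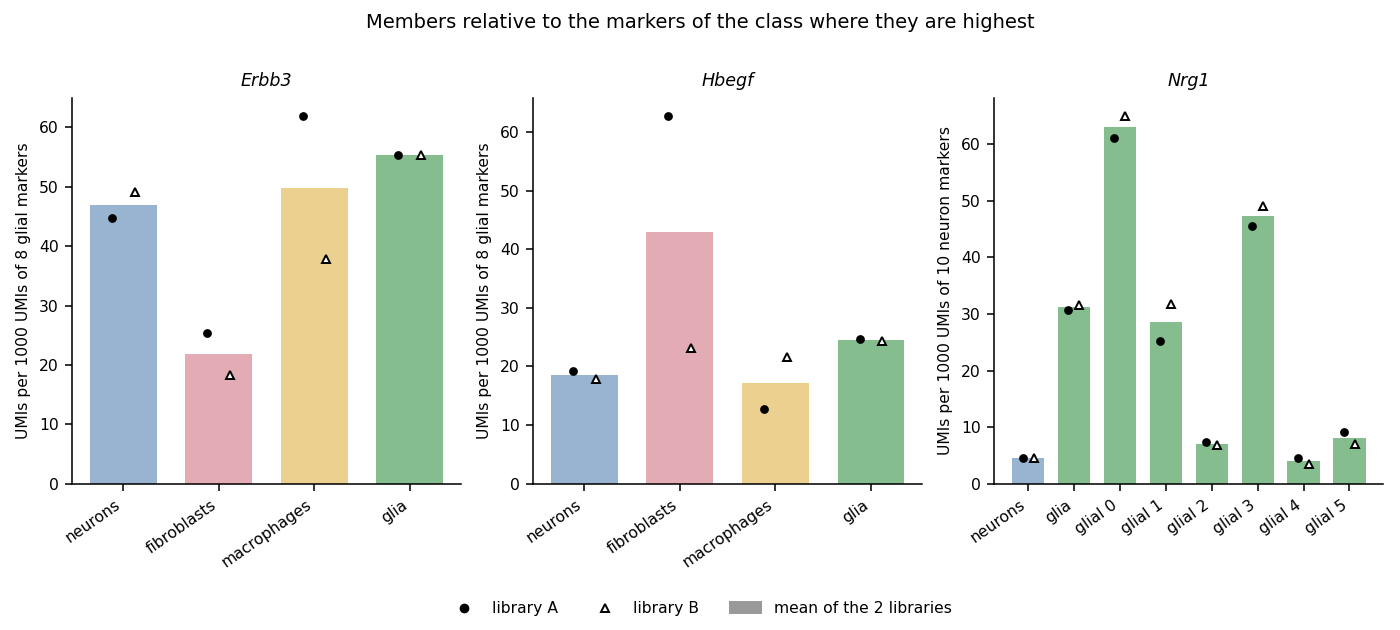
UMIs of Erbb3 and of Hbegf per 1000 UMIs of 8 glial markers in the 4 classes, and UMIs of Nrg1 per 1000 UMIs of 10 neuron markers in neurons, glia and the 6 glial clusters; points are libraries A and B and bars their mean. Erbb3 has 44.7 and 49.1 in neurons, beside 55.3 and 55.4 in glia, whereas Nrg1 has 4.61 and 4.54 in neurons, beside 30.8 and 31.6 in glia.

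Erbb2, the partner receptor with no ligand of its own, was at 34.9 and 39.2 CPM in glia, against 3.36 and 3.40 CPM in neurons, 4.72 and 5.82 CPM in fibroblasts, and 21.4 and 8.96 CPM in macrophages. Glia had a log2 fold change of 2.15 against the other classes (SE 0.14, edgeR adjusted p = 3.6e-13). Ratios of glia were 11 against neurons, 7.04 against fibroblasts and 2.44 against macrophages (1.63 in A and 4.38 in B, on 13 macrophage UMIs), and glia supplied 94.72% of 2026 UMIs. The macrophages with the lower share of glial marker UMIs had no Erbb2 UMI in either library. Glia therefore had both subunits of the neuregulin receptor pair at their highest level in the culture, with no overlap between libraries of glia and of any other class.

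Egfr was the receptor of the fibroblasts. The gene, which encodes the receptor for EGF, Tgfa and Areg among others, was at 58.0 and 62.7 CPM in fibroblasts, with 123 UMIs in 78 of 173 cells of A and 151 UMIs in 99 of 216 cells of B. The 9447 glia held 4 Egfr UMIs in all, the neurons 5 and the macrophages 3, so that 95.8% of 286 UMIs were in a class with 5.81% of all UMIs. Fibroblasts were 780-fold above glia, 241-fold above neurons and 17.3-fold above macrophages (12.2 in A and 28.0 in B). With the exact Poisson interval (95%) of the few UMIs in the lower class, which covers counting error only, these ratios run from 305 to 2860, from 103 to 743 and from 5.91 to 83.7. Macrophages also held the fibroblast marker list at 1906 and 526 CPM, and the part of fibroblast RNA in their 3 Egfr UMIs was not tested. Egfr in fibroblasts had a log2 fold change of 7.29 (SE 0.24, edgeR adjusted p = 6.3e-20), and no class but fibroblasts passed 5 CPM in either library. In the fibroblasts with the lower share of glial marker UMIs Egfr was at 58.3 and 62.0 CPM. Since glia held 4 Egfr UMIs in all, this choice of cells is no check on the fibroblast level. The same fit gave glia a log2 fold change of −5.73 for Egfr (SE 0.81, edgeR adjusted p = 7.4e-07). Egfr had enough counts to be tested only through its fibroblast UMIs. The calls in fibroblasts and glia therefore restate its levels and are no separate support.

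Areg and Ereg, encoding amphiregulin and epiregulin, were highest in fibroblasts as well, on few UMIs. Areg had 24.1 CPM in A, from 51 UMIs in 19 cells with 13 of them in 1 cell, and 8.31 CPM in B, from 20 UMIs in 8 cells. Against these stood 2.58 and 1.97 CPM in neurons, 0.433 and 0.950 CPM in glia and 0 UMIs in macrophages. Fibroblasts were 7.11-fold above neurons (9.32 in A and 4.21 in B), 23.4-fold above glia (55.6 in A and 8.74 in B, where 14 of 25 glial UMIs were in 1 cell) and at least 4.68-fold higher than macrophages when those are set to a floor of 3 UMIs over both libraries. The fitted log2 fold change was 6.09 (SE 0.70, edgeR adjusted p = 4.8e-08), a value that depends on the empty macrophage libraries and is no estimate of size. Per 1000 fibroblast-marker UMIs, neurons held 14.4 and 6.84 Areg UMIs, against 0.946 and 0.365 in fibroblasts. The neuronal UMIs of Areg came from 20 cells in A and 13 cells in B.

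Ereg had 9.91 and 9.55 CPM in fibroblasts, from 21 and 23 UMIs in 12 and 16 cells, and these made up 86.27% of all 51 Ereg UMIs. Glia held 6, neurons 1 and macrophages 0. Fibroblasts were 84.8-fold above glia (counting interval 39.0 to 231; 252 in A, outside that interval, and 50.3 in B), and at least 2.81-fold higher than macrophages at the same floor. The edgeR adjusted p was 5.5e-09, but Ereg had enough counts to be tested only through fibroblasts. That call restates the level and is no separate support. By level, fibroblasts were the highest class for Egfr and for Areg and Ereg, which are known to bind it.

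**Figure D3:**
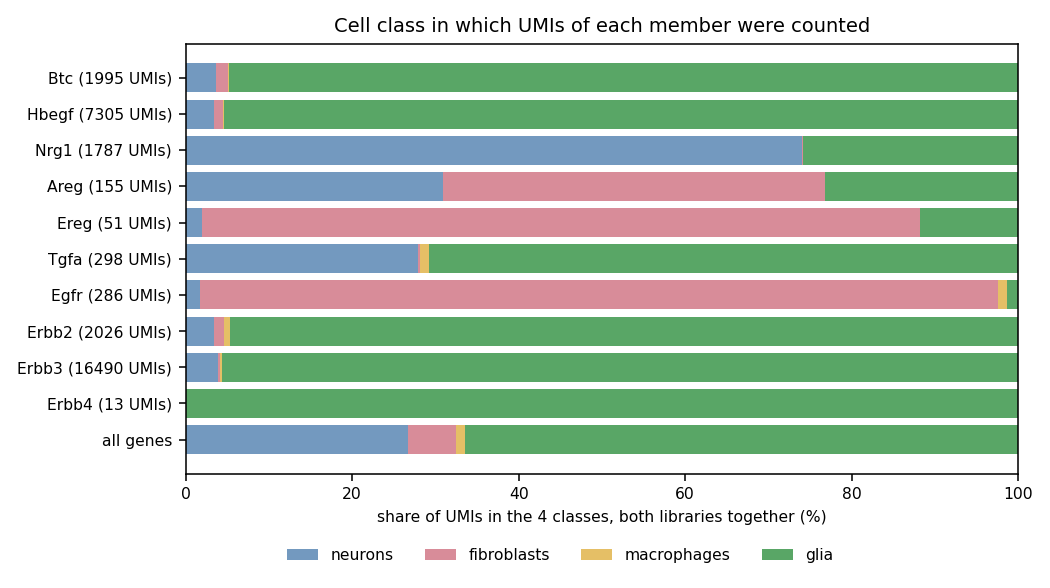
Share of each member's UMIs (%, both libraries together) counted in neurons, fibroblasts, macrophages and glia, as stacked bars, with the UMIs of all genes in the lowest bar. Glia supply 66.43% of all UMIs but 94.84% of Btc, 95.35% of Hbegf and 95.59% of Erbb3, and fibroblasts supply 5.81% of all UMIs but 95.8% of Egfr.

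Areg, Ereg, Btc and the further ligand gene Epgn lie in 1 stretch of chromosome 5 (GRCm38, GENCODE M21), with Epgn at chr5:91027464-91035215, Ereg at chr5:91074622-91093646 and Areg at chr5:91139599-91148432 on the plus strand, and Btc at chr5:91357261-91402994 on the minus strand. The stretch as a whole did not share 1 class: the neighbours Ereg and Areg were both highest in fibroblasts, and Btc in glia. All 12 Epgn UMIs of the culture were in glia, too few to compare levels. Egfr (chr11:16752203-16918158) and Erbb2 (chr11:98412470-98437716) share chromosome 11 and were likewise highest in different classes.

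Nrg1 was the neuronal ligand. Neuregulin 1 was at 64.1 and 63.2 CPM in neurons, against 9.72 and 8.21 CPM in glia, 0.943 and 0 CPM in fibroblasts (2 UMIs) and 0 UMIs in macrophages. Neurons were 7.10-fold above glia (6.60 in A and 7.70 in B) and at least 18.4-fold higher than macrophages at a floor of 3 UMIs over both libraries, and the edgeR adjusted p was 2.5e-18. Of 1787 UMIs, 73.98% came from neurons and 25.91% from glia. Reads from the 3′ end cannot separate the isoforms of Nrg1, so membrane-bound and secreted forms are counted together. In the neurons with the lower share of glial marker UMIs, Nrg1 was at 71.3 and 69.2 CPM. Since glia had less Nrg1 than neurons, this choice of cells is no check on the neuronal level. Under a 5% mitochondrial limit, which left 287 of 812 neurons, neuronal Nrg1 was lower, at 45.5 and 41.3 CPM. Glia were at 6.88 and 3.40 CPM under that limit.

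Glia also carried Nrg1, and more of it per neuron-marker UMI than neurons did. Per 1000 neuron-marker UMIs there were 30.8 and 31.6 Nrg1 UMIs in glia, against 4.61 and 4.54 in neurons. The glial ratio lay above that of neurons in both libraries, and the part of carried-over neuronal RNA was not tested. After thinning, 1.60% and 1.59% of glia had a Nrg1 UMI, against 10.8% and 12.7% of neurons. Glia were called higher than the mean of the other classes (edgeR adjusted p = 0.0142), but that call rests on the zeros of macrophages and fibroblasts, since glia lay below neurons; it was lost under a 5% mitochondrial limit and with variable genes chosen by dispersion, and the log2 fold change turned to −0.01 with 10 dimensions.

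Tgfa, encoding a ligand of Egfr, was low everywhere, with 4.39 and 3.51 CPM in neurons, 4.33 and 3.84 CPM in glia, 7.13 and 0 CPM in macrophages (3 UMIs) and 0 and 0.415 CPM in fibroblasts (1 UMI). Neurons and glia overlapped, with a ratio of 0.967, and the call of Tgfa as higher in neurons (log2 fold change 1.45, SE 0.50, edgeR adjusted p = 0.0117; DESeq2 adjusted p = 0.053) is against a mean that includes the low fibroblast level. Erbb4, the remaining neuregulin receptor, had 13 UMIs in the culture, 6 in A and 7 in B, all in glia, which is too few to compare levels. Of the other ligands, Nrg3 had 14.9 and 13.7 CPM in neurons, with 298 of its 310 UMIs there, and Nrg2 had 8.004 and 7.45 CPM in neurons, with 161 of 192 UMIs. Both neuregulins were called higher in neurons (edgeR adjusted p = 3.5e-13 for Nrg3 and 4.0e-09 for Nrg2). Nrg3 had enough counts to be tested only through neurons, with 0 UMIs in fibroblasts and in macrophages. Its call therefore restates its level and is no separate support. Egf had 83 UMIs, Nrg4 25 and Epgn 12, and none of them was tested.

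The neurons split into 6 clusters, which are described by number and without a test. Cluster n2 (136 neurons) led with Ngfr and held Calca at 9688 and 8380 CPM and Nefh at 436 and 537 CPM. It had the highest Nrg1 level, 113 and 118 CPM in n2, followed by 79.2 and 106 CPM in n3, a cluster led by Tmem233 and Mrgpra3, and 70.3 and 48.0 CPM in n4, led by Cck. Lower were n1 with 40.8 and 33.8 CPM and n0 with 35.6 and 34.1 CPM, so that n2 was 3.31-fold above n0 and 3.09-fold above n1. The libraries of n2 did not overlap those of n3 or of any lower cluster, while n1 and n0 overlapped. Nrg3 had the same leading pair, with 28.7 and 29.4 CPM in n2 and 16.6 and 17.6 CPM in n3. Tgfa instead was highest in n4, with 15.5 and 10.7 CPM, followed by 7.28 and 7.96 CPM in n2.

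Erbb3 in neuron clusters was highest and lowest where the glial markers were, but did not follow them throughout. It was at 244 and 189 CPM in n5, a cluster of 29 cells with a median of 4806 UMIs that Mgp, Spp1 and Apoe led and whose glial markers summed to 6362 and 5257 CPM. In n0 it was at 67.9 and 66.6 CPM with glial markers at 1202 and 1108 CPM, and in n3 at 10.3 and 7.29 CPM with glial markers at 187 and 110 CPM. The exception was n2, with Erbb3 at 12.3 and 12.9 CPM and glial markers at 655 and 670 CPM, beside 26.3 and 35.5 CPM and 561 and 603 CPM in n1. Per 1000 glial-marker UMIs there were 18.8 and 19.2 Erbb3 UMIs in n2, against 46.9 and 58.8 in n1 and 56.5 and 60.1 in n0. When n5 was left out of the neurons, 7 members in place of 6 were called in neurons and 1 in place of 0 in macrophages, and the counts of fibroblasts and glia stayed at 7 and 6. Of all 13776 genes then tested, 9681 were called in neurons, 3209 in macrophages, 5827 in fibroblasts and 7454 in glia. Beside these, the member counts say little about the family.

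**Figure D4:**
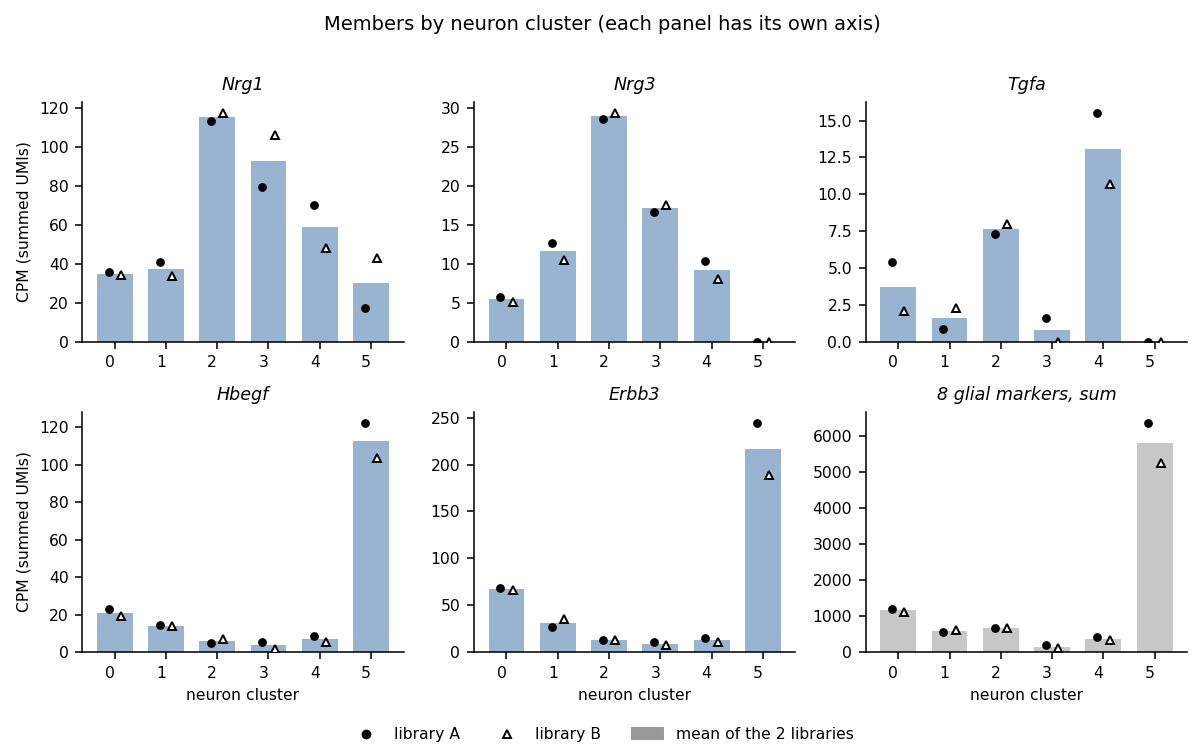
Nrg1, Nrg3, Tgfa, Hbegf and Erbb3 and the sum of 8 glial markers (CPM, 1 panel each with its own axis) in neuron clusters n0 to n5; points are libraries A and B and bars their mean. Nrg1 is highest in n2 at 113 and 118 CPM, and Erbb3 is highest in n5, where the glial markers sum to 6362 and 5257 CPM.

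The glia split into 6 clusters, numbered g0 to g5, that the marker lists of glial states described as follows. The list of satellite glial cell genes (SGC list, with Fabp7 and Kcnj10) summed to 14401 and 13952 CPM in g0, to between 8020 and 9213 CPM in g1, g3 and g5, and to between 2032 and 2455 CPM in g2 and g4. The proliferation list (Top2a, Mki67) was high in g1 (6524 and 6701 CPM) and g4 (6091 and 6054 CPM) and lowest in g0 (89.7 and 116 CPM). The list of repair Schwann cell genes (Jun, Ngfr, Gdnf) was highest in g2, at 1866 and 1812 CPM. These sums partly restate how the clusters were formed. Each cluster was tested against the equal-weight mean of the other 5 over 11591 genes, and 7 of the 10 members could be tested.

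Btc was known to differ between these glial states when it was chosen, so its levels are a description. It was at 128.7 and 112.8 CPM in g2 and 65.3 and 76.5 CPM in g4, the clusters with the lowest SGC list. Elsewhere it was at 20.5 and 18.1 CPM in g3, 14.9 and 16.9 CPM in g0, 9.41 and 8.97 CPM in g1, and 2.54 and 10.2 CPM in g5 (4 and 16 UMIs). Thus g2 was 1.70-fold above g4, 7.59-fold above g0 and 13.1-fold above g1, and the libraries of g2 lay above those of g4, and both lay above every other cluster. After thinning, 18.2% and 16.8% of g2 cells and 10.1% and 13.5% of g4 cells had a Btc UMI.

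Nrg1 was lowest in g4 and highest in g0. It was at 23.0 and 18.6 CPM in g0, which had the highest SGC list, and at 14.5 and 11.6 CPM in g3, 6.19 and 6.60 CPM in g1, 3.105 and 2.40 CPM in g2, 2.54 and 1.91 CPM in g5 and 1.26 and 0.829 CPM in g4. The libraries of g0 lay above those of every other glial cluster, g3 came next without overlap, and g2 and g5 overlapped. The level in g0 was 7.57-fold that in g2 and 20-fold that in g4, where 7 UMIs were counted (counting interval of the ratio 9.70 to 49.7). Nrg1 had a log2 fold change of 2.52 in g0 (SE 0.17, edgeR adjusted p = 3.0e-43), 1.73 in g3 (edgeR adjusted p = 9.1e-13) and −2.52 in g4 (edgeR adjusted p = 4.7e-08). With a 5% mitochondrial limit, which left 1342 of 9447 glia, the calls in g3 and g4 were lost with their directions kept (edgeR adjusted p = 0.14 and 0.99).

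A like order held relative to neuronal RNA. Per 1000 neuron-marker UMIs, g0 held 61.2 and 65.0 Nrg1 UMIs and g3 45.6 and 49.0, against 4.45 and 3.51 in g4 and 7.27 and 6.79 in g2, and against 9.18 and 9.07 in n2, the neuron cluster with the highest Nrg1 level. The ratios of g4 lay near the 4.61 and 4.54 of all neurons. Nrg1 was called higher in g1 (edgeR adjusted p = 0.0432) and lower in g2 (edgeR adjusted p = 0.0165), but both were lost with DESeq2 (adjusted p = 0.22 and 0.095) and both directions turned under the 5% limit, as did that of g1 with 10 dimensions.

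Hbegf was high in g0 and g3, with 185 and 197 CPM in g0 and 202 and 180 CPM in g3, which overlapped. It was at 141 and 133 CPM in g2, 112 and 95.9 CPM in g4, 95.5 and 88.3 CPM in g1, and 75.7 and 82.8 CPM in g5. Levels in g0 were 2.41-fold those in g5. Hbegf had a log2 fold change of 0.71 in g0 (SE 0.04, edgeR adjusted p = 7.1e-51), 0.72 in g3 (edgeR adjusted p = 8.8e-39) and −0.80 in g5 (edgeR adjusted p = 2.4e-17). The small difference of 0.17 in g2 (edgeR adjusted p = 0.00549) turned negative under the 5% limit and with 10 dimensions, and that limit ended the call in g5 (edgeR adjusted p = 0.21). Every glial cluster stayed above the 12.4 and 11.9 CPM of neurons.

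The receptors had narrow ranges among glia. Erbb3 was at 381 and 355 CPM in g5, 333 and 325 CPM in g2, 319.5 and 320.5 CPM in g0, 295 and 280 CPM in g4, 290 and 284 CPM in g1 and 279 and 286 CPM in g3, so that the clusters at the ends differed by 1.30-fold. The cluster g5 lay above the others in both libraries (log2 fold change 0.28, edgeR adjusted p = 7.9e-08; 0.19 and 0.56 under the 5% limit), while g4, g1 and g3 overlapped. Erbb2 had means between 32.5 and 40.3 CPM and was called in 0 of 6 glial clusters by edgeR and by DESeq2, with 0 at an unadjusted p under 0.05 (lowest edgeR p 0.0559, adjusted 0.108). Across glia with a high and a low SGC list, then, Erbb3 differed by the sizes given and a difference in Erbb2 was not detected.

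Over the glial clusters, the members called higher and lower numbered 2 and 1 in g0 (27.9% and 26.6% of all genes), 1 and 3 in g1 (29.3% and 23.7%), 4 and 1 in g2 (19.6% and 25.7%), 2 and 1 in g3 (17.5% and 8.81%), 1 and 2 in g4 (26.5% and 20.7%) and 1 and 3 in g5 (16.1% and 14.6%), 22 calls in all. Calls of Btc are among them and are read as description only. One call of g2 was Areg (edgeR adjusted p = 7.6e-04, DESeq2 adjusted p = 0.39), where 14 of 17 UMIs came from 1 cell. With the 5% limit there were 8 calls. Calls over all genes fell as well under that limit, to between 344 (g3) and 2248 (g1) of 8187 tested. Without it they ran from 3048 (g3) to 6310 (g0) of 11591.

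**Figure D5:**
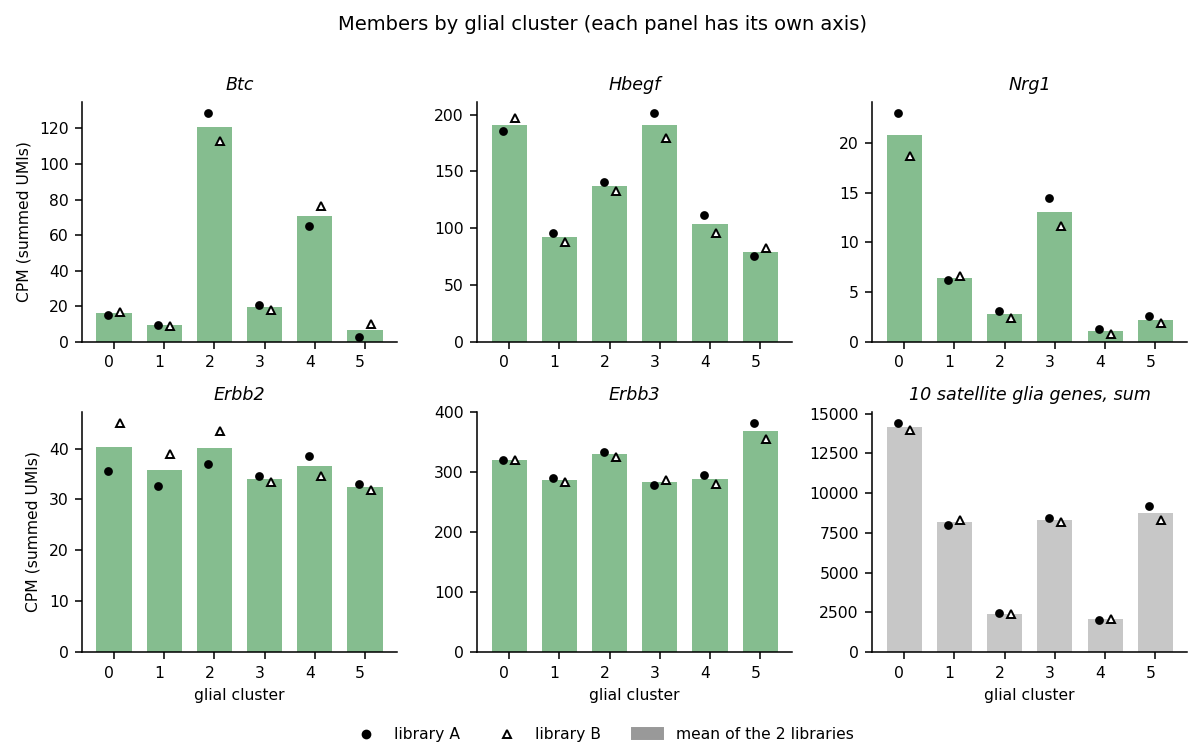
Btc, Hbegf, Nrg1, Erbb2 and Erbb3 and the sum of the 10 genes of the SGC list (CPM, 1 panel each with its own axis) in glial clusters g0 to g5; points are libraries A and B and bars their mean. Btc is at 128.7 and 112.8 CPM in g2, Nrg1 at 23.0 and 18.6 CPM in g0, and Erbb3 spans 279 to 381 CPM over all clusters.

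Of 8 genes that process the ligands, 6 were called higher and 0 lower in glia (27.5% and 26.4% of all genes), and 1 higher and 6 lower in neurons (43.0% and 27.0% of all genes). Adam10, a protease that releases betacellulin, was at 430 and 425 CPM in glia, against 80.3 and 81.1 CPM in neurons (log2 fold change of glia against the other classes 2.12, edgeR adjusted p = 1.2e-21). Adam17, which releases most other Egfr ligands, was at 8.61 and 13.8 CPM in neurons, against 82.1 and 79.2 CPM in glia (log2 fold change of neurons −2.56, edgeR adjusted p = 8.5e-14). The exception in neurons was Bace1, which cleaves Nrg1, at 80.7 and 75.4 CPM in neurons, against 34.8 and 32.7 CPM in glia (log2 fold change of neurons 2.18, edgeR adjusted p = 2.6e-14). Nrg1 and its protease Bace1 were hence both highest in neurons. The list's median log2 fold change was 0.78 in glia and −1.56 in neurons, against −0.02 and 0.25 over all genes tested.

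Several inhibitors of the pathway were called higher in fibroblasts. Errfi1, an inhibitor of the Egfr kinase, was at 159.9 and 154.9 CPM in fibroblasts, against 5.79 and 5.70 CPM in glia (log2 fold change of fibroblasts 4.71, SE 0.13, edgeR adjusted p = 1.4e-21). Lrig1, which promotes the removal of ErbB receptors, was at 48.1 and 42.0 CPM in fibroblasts, against 11.1 and 11.2 CPM in glia (log2 fold change of fibroblasts 3.37, edgeR adjusted p = 2.8e-14). Spry1, an inhibitor of Ras and ERK signalling, was at 25.9 and 26.2 CPM in fibroblasts, against 3.35 and 2.89 CPM in glia (log2 fold change of fibroblasts 4.23, edgeR adjusted p = 1.4e-12). Of the 9 ERK feedback inhibitors 5 were called higher in fibroblasts and 0 lower, and of the 10 receptor regulators tested 5 were higher and 3 lower, where 23.4% of all genes were higher and 18.6% lower. Medians were 0.38 and 0.55 on the log2 scale, against −0.02 over all genes.

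Genes known to respond to ERK had calls in both directions in each class. In glia 5 of 10 were higher and 2 lower (27.5% and 26.4% of all genes), among the higher ones Ccnd1, a cyclin of the G1 phase, at 557 and 558 CPM in glia, against 44.6 and 51.2 CPM in neurons (log2 fold change of glia 2.37, edgeR adjusted p = 1.4e-22). In fibroblasts 6 were higher and 3 lower (23.4% and 18.6% of all genes), and Etv4, a transcription factor of the Ets family, was at 24.1 and 29.1 CPM in fibroblasts, against 4.33 and 3.8 CPM in glia (log2 fold change of fibroblasts 3.02, edgeR adjusted p = 4.0e-10). In neurons 2 were higher and 6 lower (43.0% and 27.0% of all genes), and the related factor Etv5 was at 82.5 and 71.1 CPM in neurons, against 16.8 and 17.1 CPM in glia (log2 fold change of neurons 2.37, edgeR adjusted p = 1.5e-16). Macrophages had 1 higher and 2 lower (12.1% and 11.1% of all genes). The list's median log2 fold change was 0.44 in glia, 0.61 in fibroblasts, −0.63 in neurons and −0.64 in macrophages, against −0.02, −0.02, 0.25 and −0.21 over all genes. Adaptors and kinases were called higher in neurons for 17 of 20 genes and lower for 0, Hras being at 629 and 606 CPM in neurons, against 186 and 183 CPM in glia (log2 fold change of neurons 1.98, edgeR adjusted p = 3.6e-23), and called lower in glia for 12 of 20 genes and higher for 4. The median of the adaptors was 0.61 in neurons and −0.32 in glia, where that of all genes was 0.25 and −0.02.

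Within glia, 8 of the 9 feedback inhibitors were called higher in g0 and 0 lower, and 6 of 10 ERK response genes were higher and 1 lower, where 27.9% of all genes were higher and 26.6% lower. Their medians in g0 were 0.45 and 0.44 on the log2 scale, against 0.02 over all genes. In g4 the feedback inhibitors gave 0 higher and 4 lower, and the response genes 2 higher and 5 lower, where 26.5% of all genes were higher and 20.7% lower. Their medians in g4 were −0.47 and −0.12, against 0.01 over all genes. Phlda1, an early response gene, was at 526 and 534 CPM in g0 (log2 fold change 0.71, edgeR adjusted p = 5.1e-105) and at 206 and 202 CPM in g4 (−0.84, edgeR adjusted p = 1.1e-76). Spry2, a feedback inhibitor, was at 35.9 and 30.1 CPM in g0 and at 14.8 and 14.4 CPM in g4, with no overlap. Lrig1 ran the other way, with 22.9 and 21.6 CPM in g2 and 15.7 and 19.9 CPM in g4, against 8.16 and 7.01 CPM in g0.

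For likeness, each member's log2(CPM + 1) was correlated with that of 9595 genes over 18 profiles (9 groups in 2 libraries); profiles of a library share depth, and Pearson r is a description. Nearest to Erbb3 were Foxd3 (r = 0.996), Arhgef26 and Sox10 (r = 0.993), of which Foxd3 and Sox10 are glial markers of the list used for naming. Nearest to Erbb2 were Qk, Zeb2 and Cdh19, with r of 0.988 for Qk. Nearest to Egfr were Lrrc32 (r = 0.971), Plekhh2 and Foxd1, and to Areg Ctgf (r = 0.912), Esm1 and Ptgfr. For the other ligands they were Rbms3 (r = 0.977), Pink1 and Rgs7 for Nrg1, Vwa1 (r = 0.975), Dennd6a and Lrch3 for Hbegf, and Asgr1 (r = 0.901), Csrp2 and Myl1 for Btc.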

How the data were processed

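The deposited files are raw UMI counts per gene and cell for libraries A and B (10x 3′ v3); the authors aligned reads to mm10 with Cell Ranger 3.0.2, while the matrix header names version 3.1.0. No normalization was applied to the deposited counts. Cells under 200 genes or above 10% mitochondrial UMIs were removed, 229 of 10730 fell short of the 2000 UMIs used for thinning, and the 7 barcodes shared by both libraries after filtering were kept. Clustering used Seurat 5.3.0 in R 4.3.3 (2000 variable genes, 20 dimensions, resolution 0.18) without the members and pathway genes; no doublet caller was run. Counts were summed per library and group and tested with edgeR 4.0.16 (TMM, filterByExpr, glmQLFit, library as a block because both libraries enter every group; 3 residual degrees of freedom for classes and 5 for glial clusters). The libraries differed by more than sampling noise. Chi-square per degree of freedom was 6.77 over all cells, of which neurons made up 8.61% in A and 6.64% in B. Within classes it was lower, at 1.56 in glia, 2.42 in neurons, 1.92 in fibroblasts and 2.135 in macrophages. DESeq2 1.42.0 and other settings were alternatives. Other steps used Python 3.11.15, numpy 2.4.6, scipy 1.17.1, pandas 2.3.3 and matplotlib 3.10.9. The members and lists were chosen with earlier results of these data known. All members are named; from each pathway list, up to 3 called genes a direction and contrast with the largest change, the same sign in both libraries and at least 20 CPM in a group could be named. Statistics scripts were tested on simulated data. Intervals and floors of 3 UMIs cover counting error only.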

Additional observations from a re-analysis of the deposited data

How the results depend on the processing

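Leaving the library block out ("no replicate block") changed no call of a member: 41 of 41 kept direction and side of the threshold, with counts of 6 in neurons, 7 in fibroblasts, 0 in macrophages, 6 in glia and 22 over glial clusters. The same held for 41 of 41 without TMM and without the low-count filter, 40 with resolution 0.5, 36 with DESeq2, 34 of 36 without holding genes out, 31 of 33 with variable genes by dispersion, 28 of 33 with 10 dimensions and 24 of 38 with a 5% mitochondrial limit; 10 dimensions and dispersion matched 4 of the 6 glial clusters. Single libraries kept all 41 directions, with no test. Leaving n5 out of the neurons, chosen after seeing the data, kept 19 of 19 and gave 7 in place of 6 members in neurons (9681 of 13776 genes were called there). Macrophages, with 0 members called, had 1 without TMM, 2 without the filter, 1 with the 5% limit and 1 without n5. Over all genes these settings called 3589 of 13784, 3319 of 20685, 2772 of 12568 and 3209 of 13776 in macrophages. Cluster g1 had 2 in place of 4 with the 5% limit and with 10 dimensions; g2 had 3 in place of 5 with DESeq2, 10 dimensions or no genes held out, and 1 with the 5% limit; with that limit g3 had 1 in place of 3, g5 had 0 in place of 4, and all glial clusters 8 in place of 22. Log2 fold changes that turned were Nrg1 in glia (−0.015 with 10 dimensions), Nrg1 in g1 (−0.94 with the 5% limit, −0.81 with 10 dimensions), Hbegf in g2 (−0.13 and −0.0020) and Nrg1 in g2 (0.79 with the 5% limit). The cause was not tested, but the 5% limit left 2047 of 10730 cells. Over all genes, DESeq2 called 4146 against 6310 in g0, 3836 against 6135 in g1 and 1557 against 3048 in g3, and the 5% limit called 1599 in g0, 2248 in g1, 1991 against 5247 in g2, 344 in g3, 1958 against 5472 in g4 and 471 against 3563 in g5. Without TMM the share of calls that were higher was 74.4% in place of 51.0% in glia (median shift 0.36), 43.3% in place of 55.7% in fibroblasts (−0.16), 38.9% in place of 52.2% in macrophages (−0.17) and 45.7% in place of 56.2% in g4; it was 62.5% in macrophages with DESeq2 and in glia with dispersion.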
